A study of Homo sapiens with 4 samples.

Results

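The transforming growth factor-β (TGF-β) and bone morphogenetic protein (BMP) pathway genes were examined here as a set of 50 gene symbols covering ligands, latency proteins, receptors, antagonists, SMAD proteins, SMAD regulators and target genes. The symbols were chosen by name, as members of these pathways. Of the 50, 48 were among the 16658 genes of the expression table, and INHBA and ID4 were not analysed here. A test across all genes covered 37 of the 48, those with at least 1 FPKM (fragments mapped to a gene, scaled by transcript length and by all mapped fragments of the library) in at least 2 libraries, out of 10726 tested genes.

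RNA was sequenced from a cell line labelled HepG2, a human liver cancer line, in 2 libraries of wild type (WT) cells and 2 libraries of cells in which ZCCHC4 had been disrupted with CRISPR/Cas9 (ZCCHC4 KO1). ZCCHC4 is an RNA N6-methyladenosine methyltransferase of 28S ribosomal RNA. All 4 libraries came from untreated cells, grown to 80% confluence in serum-containing medium. ZCCHC4 KO1 was 1 knockout line, so the loss of ZCCHC4 and any other difference between this line and the WT cells cannot be told apart. The labels do not say whether the replicates were separate cultures, and the p-values measure only the spread between these libraries.

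TGF-β, activin and BMP ligands are secreted as dimers that bring together type II and type I receptor kinases at the cell surface. The activated type I receptor phosphorylates the receptor-regulated SMADs, SMAD2 and SMAD3 for TGF-β and activin and SMAD1, SMAD5 and SMAD9 for BMP, which join SMAD4 and act on genes in the nucleus. Latency proteins, soluble antagonists, inhibitory SMADs and ubiquitin ligases restrain the signal at successive steps. In liver the pathways are known for fibrosis, control of hepatocyte growth and, through BMP6, control of iron uptake.

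Depth could not be read from the FPKM values, whose sums ranged from 512417 to 565199 per library. The targeted gene, ZCCHC4, read 7.22 and 5.44 FPKM in WT replicates 1 and 2 and 1.08 and 2.29 FPKM in ZCCHC4 KO1 replicates 1 and 2, which on the log2 scale is a difference of -1.48 with a standard error of 0.29 (adjusted p = 0.0448). Hepatocyte markers were at or near 0 in libraries labelled HepG2: 14 of the 22 listed were in the table, 0 of them reached 1 FPKM in both WT libraries, the highest value in any library was 0.72 FPKM, and 3 were at 0 in both WT libraries. AFP, the fetal serum protein for which HepG2 is known, read 0 and 0.05 FPKM in WT and 0 in both ZCCHC4 KO1 libraries. The hepatocyte sum was 1.17 to 1.18 FPKM in WT and 1.58 to 1.59 FPKM in ZCCHC4 KO1. The 6 listed markers of simple epithelium summed to 5244 to 6095 FPKM in WT and 7069 to 9260 FPKM in ZCCHC4 KO1. KRT7, KRT8 and KRT18 carried this sum, whereas KRT19, SOX9 and EPCAM did not exceed 0.11 FPKM in any library. The groups are called WT and ZCCHC4 KO1 after their labels.

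The receptor genes TGFBR1, TGFBR2 and ACVR1 and the ligand genes BMP2 and BMP6 were lower in ZCCHC4 KO1 than in WT. So were the genes for the BMP antagonist noggin and the matrix protein TGFBI, while the ligand genes GDF15 and BMP4 were higher. In all, 7 of the 37 tested genes were lower and 2 were higher at an adjusted p below 0.05 (limma on log2(FPKM + 1), Benjamini-Hochberg adjustment over all tested genes). These are 18.9% and 5.41% of the tested set, beside 4.48% lower and 1.5% higher among all tested genes, and they describe a list chosen with earlier results of these data known. Their median change was -0.20 on the log2 scale, beside -0.03 for all tested genes. The ZCCHC4 KO1 libraries both lay below both WT libraries for 17 of the 37 genes and above them for 5, where 28.5% and 23.1% of all tested genes did so. NOG passed the expression filter through the WT libraries alone and BMP4 through the ZCCHC4 KO1 libraries alone, so their groups had to differ. With a stricter rule, an adjusted p below 0.001 and a change of at least 2-fold, 0 of the 37 passed by limma, beside 0.0746% of all tested genes. At an unadjusted limma p below 0.05, 10 were lower and 2 higher, without a share over all tested genes to set beside them. Fold changes on the log2(FPKM + 1) scale understate the change of genes with low values.

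**Figure D1:**
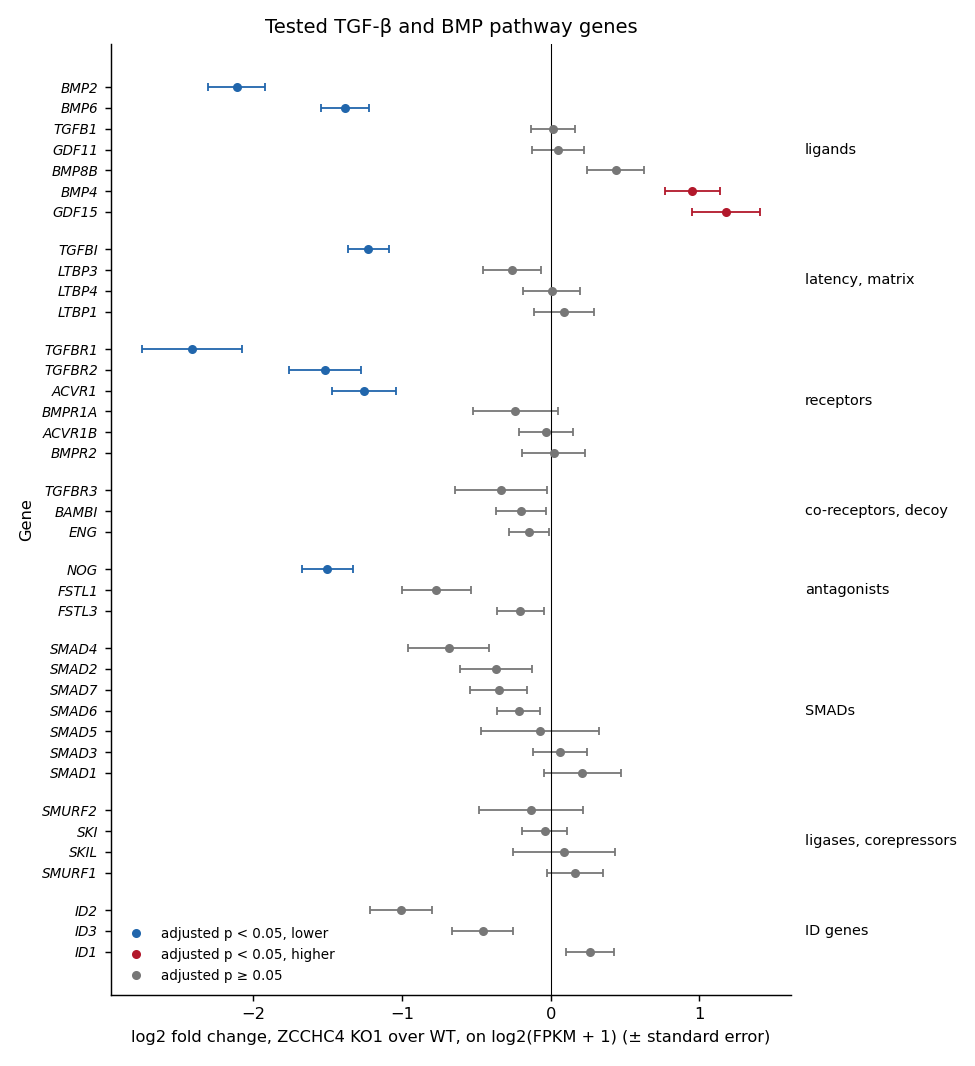
Log2 fold change (ZCCHC4 KO1 over WT, on the log2(FPKM + 1) scale) of the 37 tested pathway genes, grouped by role, with standard errors from limma. Blue points were lower and red points higher at an adjusted p below 0.05, and the 28 grey points, between -1.01 and 0.44, did not pass.

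Promoters were taken as the 250 bases before the outermost start that the RefSeq promoter table gives for a gene (GRCh38.p14, written 5′ to 3′ on the strand of the gene). For BMP4, NODAL, TGFBR3, SMAD1, SMAD9 and ACVR2A this start lies inside the annotated span of the gene. They were searched on both strands for CAGAC, the SMAD box, whose other strand reads GTCTG, and for GGCGCC, a palindromic GC-rich motif bound by SMAD complexes. ACVR1 and GDF15 are printed as changed genes in either direction that hold a SMAD box, TGFBI as one with the GC-rich motif, and TGFBR2 as one with neither. Capitals mark the motifs. The intervals are chr3:30606106-30606355 (plus strand) for TGFBR2, chr2:157876331-157876580 (minus strand) for ACVR1, chr5:136028738-136028987 (plus strand) for TGFBI and chr19:18385908-18386157 (plus strand) for GDF15.
TGFBR2: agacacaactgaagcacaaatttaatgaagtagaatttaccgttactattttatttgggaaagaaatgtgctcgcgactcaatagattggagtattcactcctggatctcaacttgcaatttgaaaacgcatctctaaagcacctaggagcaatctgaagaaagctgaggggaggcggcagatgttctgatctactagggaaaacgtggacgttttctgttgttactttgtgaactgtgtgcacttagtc
ACVR1: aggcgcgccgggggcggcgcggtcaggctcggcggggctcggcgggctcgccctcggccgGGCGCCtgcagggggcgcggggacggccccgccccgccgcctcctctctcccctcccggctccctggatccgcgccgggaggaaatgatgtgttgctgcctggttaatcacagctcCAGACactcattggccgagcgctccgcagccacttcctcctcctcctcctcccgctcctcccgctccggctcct
TGFBI: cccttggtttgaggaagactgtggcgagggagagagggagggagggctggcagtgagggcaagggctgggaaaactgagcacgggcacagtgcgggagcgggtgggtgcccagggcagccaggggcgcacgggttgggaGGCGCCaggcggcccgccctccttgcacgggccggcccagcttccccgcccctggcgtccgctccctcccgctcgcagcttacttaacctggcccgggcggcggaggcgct
GDF15: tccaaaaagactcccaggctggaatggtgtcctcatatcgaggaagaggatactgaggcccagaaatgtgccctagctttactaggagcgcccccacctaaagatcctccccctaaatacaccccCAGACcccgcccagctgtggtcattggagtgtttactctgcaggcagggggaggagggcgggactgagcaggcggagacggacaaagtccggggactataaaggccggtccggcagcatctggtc

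Among 27305 promoters of the same length, 37.9% held CAGAC and 16.0% held GGCGCC. A promoter was found for 46 of the 50 pathway genes, of which 16 held CAGAC and 14 held GGCGCC. Of the 7 changed genes with a promoter, 3 held CAGAC (ACVR1, BMP4 and GDF15) and 3 held GGCGCC (ACVR1, BMP4 and TGFBI). These matches are descriptions of the letters in the window, and no binding was measured.

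Among the receptors, TGFBR1, TGFBR2 and ACVR1 were lower in ZCCHC4 KO1, 3 of the 6 type I and type II receptor genes tested, beside 4.48% of all tested genes. TGFBR1 encodes the type I receptor kinase for TGF-β (chromosome 9, 99103647 to 99154192, GRCh38). It read 18.02 and 10.17 FPKM in WT replicates 1 and 2 and 1.23 and 2.36 FPKM in the corresponding ZCCHC4 KO1 replicates. Both knockout values lay far below both WT values, with means of 14.1 ± 5.55 and 1.79 ± 0.799 FPKM (SD, n = 2 each), a 7.85-fold difference. On the log2 scale the change was -2.41 (standard error 0.34, adjusted p = 0.0195), the largest in size of the 37 genes. In bulk RNA, fewer cells that express a gene and less RNA per cell cannot be told apart.

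TGFBR2 encodes the constitutively active type II kinase that binds TGF-β and phosphorylates TGFBR1 (chromosome 3, 30606356 to 30694142). Its FPKM was 10.52 in WT replicate 1, 9.33 in WT replicate 2, 2.2 in ZCCHC4 KO1 replicate 1 and 3.54 in ZCCHC4 KO1 replicate 2. The groups did not overlap, and the means of 9.93 ± 0.841 and 2.87 ± 0.948 FPKM (SD, n = 2 each) differed 3.46-fold (log2 fold change -1.52, standard error 0.24, adjusted p = 0.0264). The promoter printed for TGFBR2 held neither motif. Summed, the 2 TGF-β receptor transcripts came to 28.54 and 19.5 FPKM in WT and to 3.43 and 5.9 FPKM in ZCCHC4 KO1. ACVR1, also known as ALK2, is a type I receptor for BMP ligands (chromosome 2, 157736446 to 157876330). Its values were 4.83 and 4.08 FPKM in WT against 1.02 and 1.56 FPKM in ZCCHC4 KO1, again without overlap (log2 fold change -1.26, standard error 0.22, adjusted p = 0.0319). The ACVR1 call was lost without WT replicate 1 (log2 fold change -1.16) and without ZCCHC4 KO1 replicate 1 (-1.09), and the calls of all 3 receptors were lost when genes of low expression were kept in the test.

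The other receptors did not pass the test. BMPR1A, the main type I BMP receptor, read 9.43 and 6.57 FPKM in WT and 5.1 and 8.29 FPKM in ZCCHC4 KO1, and the groups overlapped. ACVR1B, the type I receptor for activin, lay between 6.25 and 6.51 FPKM in all 4 libraries (log2 fold change -0.03). BMPR2, the type II BMP receptor, lay between 0.78 and 1.3 FPKM (log2 fold change 0.02). The remaining 3, BMPR1B and the activin type II receptors ACVR2A and ACVR2B, were below the expression filter, with no value above 1.03 FPKM. The co-receptors betaglycan (TGFBR3, 5.45 and 3.11 FPKM in WT, 2.37 and 3.94 FPKM in ZCCHC4 KO1) and endoglin (ENG, log2 fold change -0.14) and the decoy receptor BAMBI (log2 fold change -0.20) did not pass either. A p above the threshold does not show that the groups were alike.

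**Figure D2:**
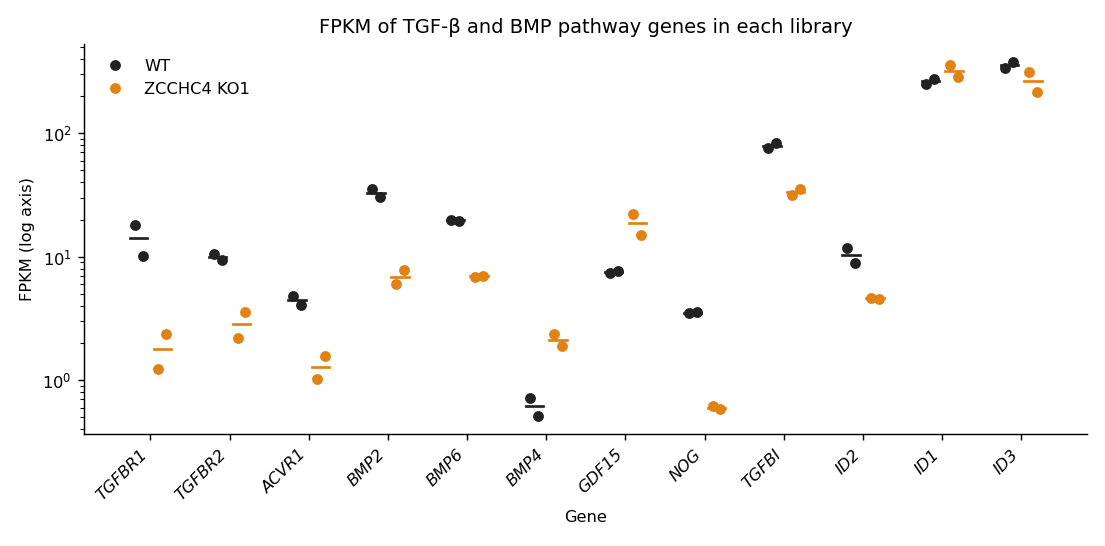
FPKM on a log axis of 12 pathway genes in each of the 4 libraries, with points for libraries and lines for group means. The receptor genes TGFBR1, TGFBR2 and ACVR1 and the ligand genes BMP2 and BMP6 lie lower in both ZCCHC4 KO1 libraries (orange) than in both WT libraries (black), GDF15 and BMP4 lie higher, and ID1 lies above 252 FPKM in all 4.

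Of the 12 ligand genes listed, 7 were tested, and 2 were lower and 2 higher in ZCCHC4 KO1, beside 4.48% lower and 1.5% higher among all tested genes. BMP2 encodes a BMP ligand with roles in bone and heart formation (chromosome 20, 6767686 to 6780246). In WT it reached 35.68 and 30.48 FPKM, and in ZCCHC4 KO1 it reached 6.02 and 7.79 FPKM. Every WT value exceeded every knockout value by a wide margin, with means of 33.1 ± 3.68 and 6.9 ± 1.25 FPKM (SD, n = 2 each), a 4.79-fold difference (log2 fold change -2.11, standard error 0.19, adjusted p = 0.00708). BMP6, which in liver drives expression of the iron hormone hepcidin, lies on chromosome 6 (7726099 to 7881728). Its replicates were close together, at 19.84 and 19.55 FPKM in WT and 6.9 and 6.95 FPKM in ZCCHC4 KO1. The 2.84-fold difference amounted to -1.38 on the log2 scale, with a standard error of 0.16 and an adjusted p of 0.0128. BMP6 shares up to 212 exonic bases with TXNDC5 on the opposite strand, and whether strand was used in counting is not given in the sources used here.

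GDF15 encodes a stress-induced, distant member of the TGF-β superfamily (chromosome 19, 18386158 to 18389176). Its expression was 7.41 and 7.69 FPKM in WT and 22.37 and 15.07 FPKM in ZCCHC4 KO1. Both knockout libraries were higher than both WT libraries, though they differed from each other more than the WT libraries did (18.7 ± 5.16 against 7.55 ± 0.198 FPKM, SD, n = 2 each), and GDF15 rose 2.48-fold (log2 fold change 1.18, standard error 0.23, adjusted p = 0.0444). BMP4, a BMP ligand closely related to BMP2, lies on chromosome 14 (53949736 to 53956891). It was low throughout, at 0.72 and 0.51 FPKM in WT and 2.36 and 1.9 FPKM in ZCCHC4 KO1. BMP4 passed the expression filter through the knockout libraries alone, so its groups could not overlap. It rose 3.46-fold by mean FPKM (log2 fold change 0.95, standard error 0.19, adjusted p = 0.0454). An unnamed long noncoding RNA on the opposite strand shares up to 506 exonic bases with BMP4. Both calls were lost without any one of WT replicate 1, WT replicate 2 or ZCCHC4 KO1 replicate 1, where the log2 fold change of GDF15 was 1.16, 1.20 and 0.91 and that of BMP4 was 1.05, 0.86 and 0.85.

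TGFB1 was the most abundant of the TGF-β isoforms and did not pass the test, at 62.34 and 66.86 FPKM in WT and 71.64 and 59.45 FPKM in ZCCHC4 KO1 (log2 fold change 0.02, standard error 0.15, adjusted p = 0.969). The isoform genes TGFB2 and TGFB3 lay below 1 FPKM in all 4 libraries and were not tested, as were BMP7 (at most 0.15 FPKM) and NODAL (at most 0.03 FPKM). GDF11, a ligand related to myostatin, lay between 9.38 and 10.7 FPKM in all 4 libraries. BMP8B read 2.99 and 2.66 FPKM in WT and 3.92 and 4.44 FPKM in ZCCHC4 KO1 and did not pass (adjusted p = 0.252). Its value is uncertain, because BMP8A is a near-identical copy that could share its reads.

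TGFBI, a secreted matrix protein named for its induction by TGF-β, had the highest FPKM of the 9 changed genes (chromosome 5, 136028988 to 136063818). It read 76.07 and 82.63 FPKM in WT against 31.46 and 35.31 FPKM in ZCCHC4 KO1. The knockout libraries lay at less than every WT value and close to each other, a 2.38-fold difference (log2 fold change -1.23, standard error 0.14, adjusted p = 0.0117). The latent TGF-β binding protein genes, whose products hold the secreted ligand in the matrix, did not pass. LTBP1 (1.7 to 2.36 FPKM) and LTBP4 (6.31 to 7.23 FPKM) overlapped between groups, LTBP3 read 6.81 and 7.6 FPKM in WT and 6.29 and 5.41 FPKM in ZCCHC4 KO1, and LTBP2 stayed at or below 0.1 FPKM.

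Noggin, encoded by NOG, binds BMP ligands outside the cell and keeps them from their receptors (chromosome 17, 56593699 to 56595611). NOG read 3.5 and 3.56 FPKM in WT and 0.62 and 0.58 FPKM in ZCCHC4 KO1. The replicates of each group were nearly equal. Because NOG passed the expression filter through the WT libraries alone, its groups had to differ (5.88-fold, log2 fold change -1.50, standard error 0.17, adjusted p = 0.0127). The follistatin-like gene FSTL1 read 123.88 and 110.86 FPKM in WT and 54.35 and 85.95 FPKM in ZCCHC4 KO1. Its knockout libraries were both below the WT libraries but far from each other, and it did not pass (log2 fold change -0.77, adjusted p = 0.12). With all 4 libraries FSTL1 passed under quantile normalization, GC trend removal and a pairing of replicates chosen after the data were seen. Those settings called 721, 1425 and 2986 of all tested genes lower, beside 480 in the main test. FSTL3, which binds activin, stayed above 132 FPKM in every library and did not pass (log2 fold change -0.21), while FST and GREM1 did not exceed 0.11 FPKM.

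None of the 7 tested SMAD genes passed the test by limma, and 1, SMAD4, had an unadjusted p below 0.05. With all 4 libraries that gene passed under GC trend removal and a pairing of replicates chosen after the data were seen. Those settings called 1425 and 2986 of all tested genes lower, beside 480 in the main test. SMAD4, the common partner of the receptor-regulated SMADs, read 7.31 and 5.78 FPKM in WT and 2.75 and 4.8 FPKM in ZCCHC4 KO1 (log2 fold change -0.69, standard error 0.28, adjusted p = 0.214). The groups did not overlap, but the replicates of each group were apart. SMAD2 read 11.53 and 8.62 FPKM in WT and 6.32 and 8.87 FPKM in ZCCHC4 KO1, and SMAD3 lay between 8.36 and 9.57 FPKM. Of the BMP-responsive SMADs, SMAD1 (4.62 to 7.45 FPKM) and SMAD5 (2.69 to 5.97 FPKM) overlapped between groups and SMAD9 stayed at or below 0.59 FPKM, under the filter. The inhibitory SMAD genes, themselves targets of the pathway, were below WT in both knockout libraries without passing: SMAD7 had a log2 fold change of -0.35 (adjusted p = 0.351) and SMAD6 one of -0.22. Among the SMAD regulators, the ubiquitin ligases SMURF1 (log2 fold change 0.16) and SMURF2 (-0.13) and the corepressors SKI (-0.04) and SKIL (0.09) did not pass.

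The ID genes encode inhibitors of basic helix-loop-helix factors and are direct targets of BMP signalling. ID2 read 11.76 and 8.93 FPKM in WT and 4.63 and 4.58 FPKM in ZCCHC4 KO1. Its groups did not overlap and differed 2.25-fold, but it missed the threshold (log2 fold change -1.01, standard error 0.21, adjusted p = 0.0526). It passed under 7 of the other settings tried, including a pairing of replicates chosen after the data were seen. ID1 was among the most abundant genes of the set, at 252.11 and 276.14 FPKM in WT and 354.31 and 283.52 FPKM in ZCCHC4 KO1, and did not pass (log2 fold change 0.26, adjusted p = 0.401). ID3 read 337.34 and 379.63 FPKM in WT and 313.21 and 216.12 FPKM in ZCCHC4 KO1 and did not pass (log2 fold change -0.46, adjusted p = 0.263). With all 4 libraries ID3 passed under quantile normalization, which called 721 of all tested genes lower, and under the same pairing. The 3 measured ID genes thus had values of differing sign, none of which passed.

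A further list held 121 genes of the same pathways, of which 105 were in the table and 74 were tested. By limma 14 of them were lower in ZCCHC4 KO1 (18.9% of those tested, beside 4.48% of all tested genes) and 0 higher. At an unadjusted limma p below 0.05 the list held 26 lower and 2 higher, again without a share over all tested genes. Its median log2 fold change was -0.28, beside -0.03 over all tested genes. Of its TGF-β target genes, 8 of the 27 tested were lower, 0 were higher and 19 did not pass, with a median of -0.44. Of its BMP target genes, 0 of the 5 tested passed by limma in either direction, with 1 lower at an unadjusted p below 0.05. Among intracellular components, 2 of 26 tested were lower, among genes of ligand processing and matrix storage 2 of 7, among receptors 1 of 3, among antagonists 1 of 3 and among ligands 0 of 3. GFRAL, BMPER, SNAI2, IL11 and HEY1 passed the expression filter through the WT libraries alone, so they could only be lower. All of them but HEY1 are among the 14, and 0 genes of the list passed through the ZCCHC4 KO1 libraries alone. The share of 18.9% and the counts for TGF-β targets, receptors and antagonists thus include genes whose direction the filter fixed.

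SNAI2 encodes Slug, a transcriptional repressor of epithelial genes induced by TGF-β, and read 6.17 and 4.43 FPKM in WT and 0.58 and 0.81 FPKM in ZCCHC4 KO1 (log2 fold change -1.88, adjusted p = 0.0128). IL11, a cytokine of the IL-6 family, read 3.93 and 3.74 FPKM in WT and 0.42 and 0.6 FPKM in ZCCHC4 KO1 (log2 fold change -1.68, adjusted p = 0.0108). LOXL2, a lysyl oxidase that cross-links collagen, read 88.87 and 96.62 FPKM in WT and 38.35 and 34.68 FPKM in ZCCHC4 KO1 (log2 fold change -1.32, adjusted p = 0.00897). For LOXL2 both knockout libraries lay below both WT libraries, as the expression filter required of SNAI2 and IL11. LOXL2 shares up to 120 exonic bases with ENTPD4 on the same strand and up to 178 with LOXL2-AS1 on the opposite strand. An unnamed long noncoding RNA on the opposite strand shares up to 94 exonic bases with SNAI2. The other TGF-β target genes that were lower were COL1A1, COL3A1, COL4A1, TIMP1 and VEGFA, with log2 fold changes from -1.26 to -0.91, and of these COL1A1, COL3A1, COL4A1 and VEGFA were no longer called when either WT library was left out. CCN2, the connective tissue growth factor gene, lay above WT in both knockout libraries, at 9.89 and 9.3 FPKM in WT and 13.5 and 16.27 FPKM in ZCCHC4 KO1, and did not pass (log2 fold change 0.58). CCN2 was chosen after its values were seen.

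**Figure D3:**
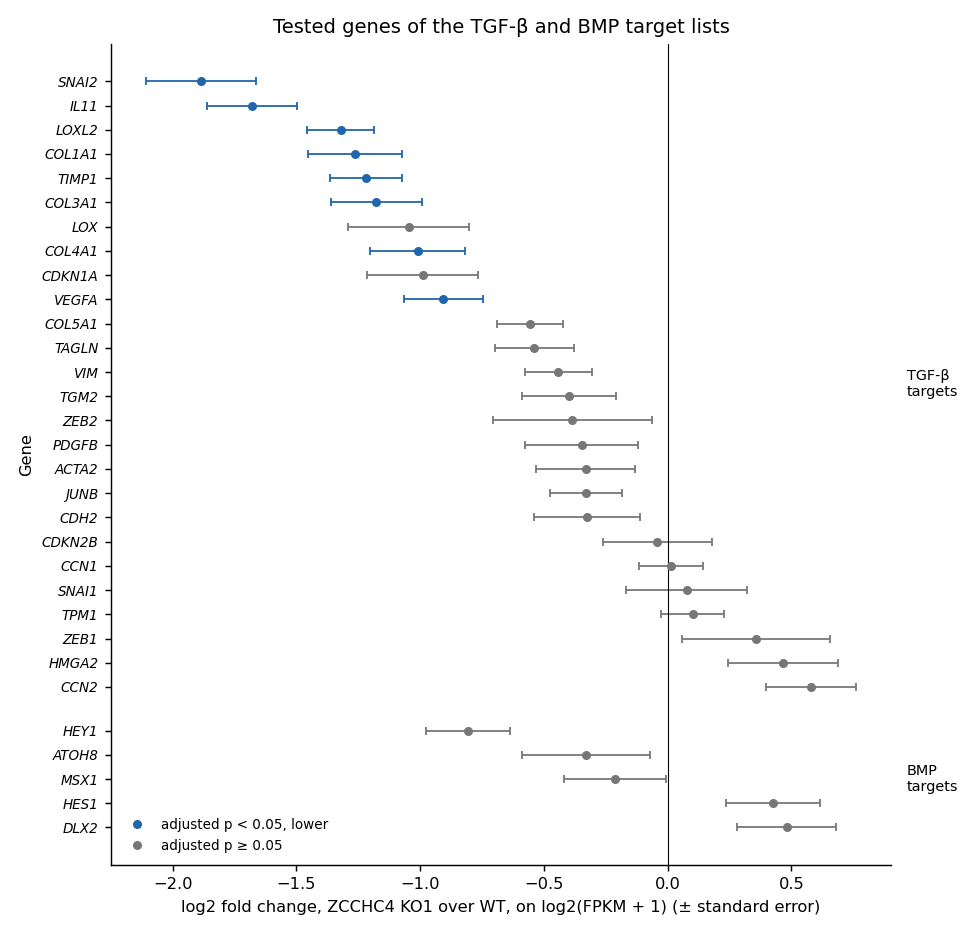
Log2 fold change (ZCCHC4 KO1 over WT, on the log2(FPKM + 1) scale, with standard errors) of 26 of the 27 tested TGF-β target genes and of the 5 tested BMP target genes. The 8 blue points were lower at an adjusted p below 0.05, and CCN2, at 0.58, is the highest of the grey points.

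PMEPA1, a TGF-β-induced membrane protein that holds back receptor-regulated SMADs, read 25.37 and 24.57 FPKM in WT and 4.76 and 6.53 FPKM in ZCCHC4 KO1 (log2 fold change -1.98, adjusted p = 0.00863). DAB2, an endocytic adaptor that binds TGF-β receptors, read 18.53 and 15.8 FPKM in WT and 4.31 and 4.93 FPKM in ZCCHC4 KO1 (log2 fold change -1.69, adjusted p = 0.0117). Both were lower in each knockout library than in each WT library. PMEPA1 shares up to 213 exonic bases with the long noncoding RNA NKILA on the opposite strand. DAB2 shares up to 65 with an unnamed long noncoding RNA on the same strand. FBN1, the fibrillin of the microfibrils to which latent TGF-β is tethered, fell from 10.98 and 9.93 FPKM to 1.83 and 3.27 FPKM (log2 fold change -1.72, adjusted p = 0.0234). FURIN, the protease that cleaves TGF-β and BMP precursors, fell from 42.89 and 45.72 FPKM to 23.01 and 20.72 FPKM (log2 fold change -0.99, adjusted p = 0.0203). BMPER, a secreted BMP-binding protein, fell from 1.56 and 1.49 FPKM to 0.1 and 0.19 FPKM (log2 fold change -1.14, adjusted p = 0.0197). GFRAL encodes the receptor for GDF15, whose own gene was higher in ZCCHC4 KO1. GFRAL fell from 1.46 and 1.16 FPKM to 0.03 and 0.26 FPKM (log2 fold change -1.02, adjusted p = 0.0388).

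The summed level of 7 fibroblast marker genes moved with these results, at 26.2 to 27.5 FPKM in WT and 11.2 to 14.1 FPKM in ZCCHC4 KO1. Of the 7, 4 reached 1 FPKM in both WT libraries, and COL1A1 and COL3A1, which stand on both the fibroblast and the TGF-β target list, carried the move. The other 5 summed to 4.75 and 4.23 FPKM in WT and to 3.07 and 5.06 FPKM in ZCCHC4 KO1, which overlap, with PDGFRB and DCN below WT in both knockout libraries and LUM at 1.86 and 1.39 FPKM in WT and 1.81 and 3.79 FPKM in ZCCHC4 KO1. The 5 endothelial markers summed to 0.65 to 0.75 FPKM in WT and 0.33 to 0.37 FPKM in ZCCHC4 KO1, and the 4 macrophage markers, of which CD68 and CSF1R reached 1 FPKM, to 16.2 to 18.3 FPKM and 12.2 to 12.3 FPKM. The part of other cell types in the results was not tested.

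Each of the 9 changed genes was also set beside the 20 tested genes nearest to it on its chromosome. The median log2 fold change of these neighbours was -0.19 for TGFBR1, -0.13 for TGFBR2, -0.14 for BMP2, -0.20 for TGFBI, 0.08 for NOG, 0.08 for GDF15 and -0.13 for BMP4, each smaller in size than that of the gene itself. The neighbours of ACVR1 had a median of -0.45, with 17 of 20 lower in ZCCHC4 KO1, and those of BMP6 a median of -0.30, with 18 of 20 lower. For SMAD4, SMAD2 and SMAD7, which lie on one chromosome, the medians of the neighbours were -0.36, -0.26 and -0.32 beside their own -0.69, -0.37 and -0.35. The stretches that hold these neighbours overlap, so the medians are not separate observations. Of the 14 further genes that were lower, TIMP1 had a neighbour median of -0.78 with 20 of 20 lower beside its own -1.22. SNAI2 had one of -0.52 with 19 of 20 lower and GFRAL one of -0.47 with 17 of 20. For PMEPA1 the median was -0.40 with 16 of 20 lower, and for LOXL2 it was -0.32 with 19 of 20. The medians of the others ran from -0.26 for DAB2 to 0.04 for IL11. Whether a change in the number of chromosome copies had a part in these values was not tested.

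The replicates of each group differed in a way that followed the GC content of the transcript. Over all tested genes with a GC value, Spearman's rho of GC content with the difference between replicates (the second minus the first) was 0.714 for WT and -0.776 for ZCCHC4 KO1, as a description across genes, which are not independent replicates. Of the 15 pathway genes with a GC content under 50%, 14 were lower in WT replicate 2 than in WT replicate 1 and 15 were higher in ZCCHC4 KO1 replicate 2 than in replicate 1. Of the 22 with a higher GC content, 11 were lower in WT replicate 2 and 10 were higher in ZCCHC4 KO1 replicate 2. TGFBR1, with a GC content of 38.3%, differed between replicates by -0.77 in WT and 0.59 in ZCCHC4 KO1 on the log2(FPKM + 1) scale. With the GC trend of each library removed, its log2 fold change was -2.32, that of TGFBR2 was -1.36 and that of ACVR1 was -1.09. All 3 were called with the trend removed, a setting that called 1425 of all 10726 tested genes lower and 1319 higher.

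**Figure D4:**
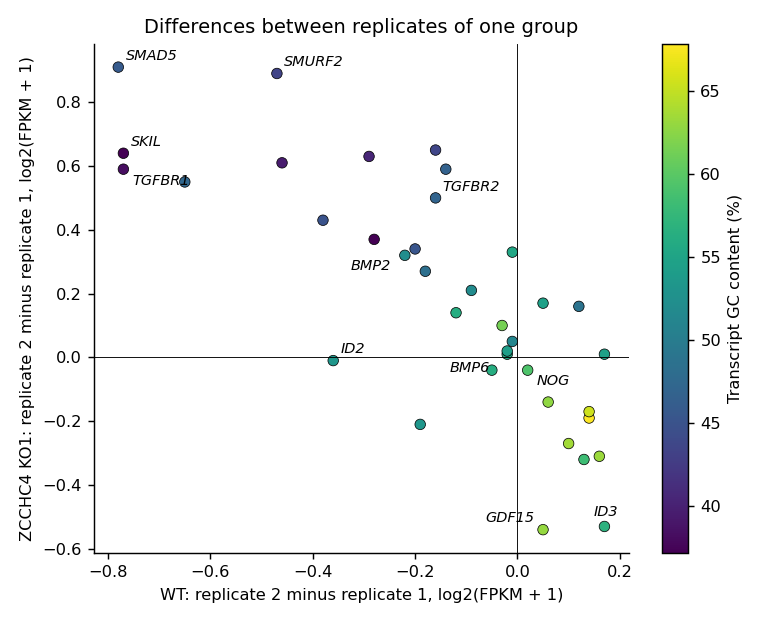
Difference between replicates (replicate 2 minus replicate 1, log2(FPKM + 1)) of the 37 tested pathway genes in WT (horizontal axis) and in ZCCHC4 KO1 (vertical axis), coloured by the GC content of the transcript. Genes of low GC content, such as TGFBR1 at -0.77 and 0.59, lie towards the upper left, and the 22 genes with a GC content of 50% or more lie on both sides of 0 on the vertical axis, 10 of them above it.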

How the data were processed

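RNA-seq libraries of 2 WT and 2 ZCCHC4 KO1 samples were compared. The authors deposited FPKM values, 1 column per library, made by aligning reads to GRCh38 with Bowtie2 and estimating expression with RSEM, without pooling. Software versions, read filters and the gene annotation are not given in the sources used here, and the sources name different sequencing platforms. Oxaliplatin-treated libraries were not analysed here.

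Values were taken as log2(FPKM + 1), and genes with at least 1 FPKM in at least 2 libraries were tested with limma 3.58.1 in R 4.3.3 (lmFit, eBayes with trend). P-values were adjusted by Benjamini-Hochberg over all 10726 tested genes and called below 0.05. The procedure was tested on simulated data. Count models were not applied to FPKM values, no counting error is given, and precision rests on 2 libraries per group, where an exact permutation test cannot go below p = 0.333. Symbols and positions came from RefSeq (GRCh38.p14), and GC content and shared exons from GENCODE.

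The pathway genes and gene lists were chosen with earlier results of these data known. Every pathway gene was named. Of the further genes, up to 3 called genes per list and direction with the largest change were named with their values, and the other called TGF-β targets and CCN2 were added after their values were seen. Alternatives were the pseudocount, filter, scaling, threshold, GC trend, eBayes trend, replicate block and leaving out each library. The values of 1 further gene are not reported here.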

Additional observations from a re-analysis of the deposited data

How the results depend on the processing

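Of 127 values of the 10 named pathway genes under other settings, 106 kept their direction and side of the threshold, 14 kept the direction without passing, 7 (all ID2) passed newly and 0 reversed. The filter, eBayes trend and replicate block settings leave the log2 fold change itself unchanged, so no reversal was possible under them. BMP2, BMP6 and TGFBI were called at an adjusted p below 0.05 under every alternative with all 4 libraries, but not at the stricter threshold. NOG was also called wherever it was tested with all 4 libraries, but not at the stricter threshold. It passed the expression filter through the WT libraries alone, so its groups had to differ. At a minimum of 5 FPKM it was not tested. Without the expression filter, 4 pathway genes were lower and 0 higher (main counts 7 and 2), and 9 further genes were lower (main count 14), with BMP4, GDF15, TGFBR1, TGFBR2, ACVR1, FBN1, GFRAL, COL1A1, COL3A1, COL4A1, VEGFA and ZCCHC4 no longer called and DCN newly called. Among all 16658 genes, 262 were then lower and 82 higher. A minimum of 5 FPKM left 1 pathway gene higher, and a change of at least 1 on the log2 scale also left 1. At an adjusted p below 0.001 and at least 2-fold, 0 pathway genes were lower, 0 were higher and 0 further genes were lower. With the GC trend removed, 10 pathway genes were lower, and 28 further genes were lower and 5 higher. Among all 10726 tested genes, 1425 were then lower and 1319 higher. The fits that left out 1 library also differed widely in how many of all tested genes they called. The ranges of counts that follow thus do not separate the pathway genes from all tested genes. Leaving out 1 library, with the lone library of a group assumed to vary like the others, gave 6 to 10 pathway genes lower and 0 to 2 higher, and 9 to 19 further genes lower and 0 to 0 higher. The count of 9 came without WT replicate 1, and 0 pathway genes were higher without WT replicate 1, WT replicate 2 or ZCCHC4 KO1 replicate 1. FURIN, COL1A1, COL3A1, COL4A1 and VEGFA were not called when either WT library was left out, nor COL4A1, GFRAL and ZCCHC4 without ZCCHC4 KO1 replicate 1, and ZCCHC4 was not called with a pseudocount of 0.1. The replicate numbers did not pair the samples: the differences between replicates in WT and ZCCHC4 KO1 correlated at -0.787. With a replicate block, 7 pathway genes were lower and 1 higher (BMP4 was lost), and 12 further genes were lower (COL4A1 and VEGFA were lost). Of all 10726 tested genes, 355 were lower and 107 higher with this block. With the numbers crossed, an alternative chosen after seeing the data, 14 pathway genes were lower and 4 higher, and 38 further genes were lower and 9 higher. That setting called 2986 of all 10726 tested genes lower and 2309 higher. Signs changed under median-ratio scaling, quantile normalization or GC correction only among uncalled pathway genes, in 2, 4 and 5 of 37 (TGFB1, SKI, ACVR1B, SMAD5, SMURF2 and LTBP4). Genes under 1 FPKM are beyond what these values can compare, and the cause of the changed calls was not tested.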
